A study of Homo sapiens with 4 samples.

Results

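The subject is the machinery of oxidative phosphorylation, followed through 52 subunit genes of its 5 complexes. They were chosen by gene symbol. Of the 60658 gene identifiers in each library, 52 matched these symbols, each symbol once. The mitochondrial genome encodes 13 of them, which are all of its protein genes, and the nuclear genome encodes 39. All 52 had a mean FPKM (fragments scaled by gene length and by library size, as the authors deposited it) of at least 1, as did 14803 of all identifiers.

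The libraries came from cells labelled HT29 and LIM1215, which are established human colorectal cancer lines. In each line, 1 library came from cells given a negative control siRNA (NC) and 1 from cells given an siRNA against TMEM161A (si2). An siRNA is a short RNA duplex that directs the degradation of a matching mRNA. The labels name no other agent, genotype or time, and each group has 1 library. They do not name separate cultures. No value below therefore carries an error between replicates, and no test between groups was possible.

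Oxidative phosphorylation takes place in the inner mitochondrial membrane. Complex I accepts electrons from NADH and complex II from succinate, complex III passes them from ubiquinol to cytochrome c, and complex IV hands them to oxygen. Complexes I, III and IV pump protons, and complex V, the ATP synthase, uses the gradient to make ATP. Complex II is built from nuclear subunits alone, while the other complexes join mitochondrial and nuclear products. The mitochondrial genome is transcribed from both strands into long precursors that are cut into mRNAs, rRNAs and tRNAs. Nuclear subunit genes are transcribed singly, and their proteins are imported.

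A pair of the mitochondrial genes are so short, and overlap their neighbours, that their FPKM needs care. MT-ATP8, a small membrane subunit of complex V, is the shortest member, with 207 bases at chrM:8366-8572 (GRCh38, plus strand). It shares its last 46 bases with MT-ATP6, in another reading frame, and 161 bases are its own. MT-ND4L, a small membrane subunit of complex I, has 297 bases at chrM:10470-10766 (GRCh38, plus strand) and shares its last 7 bases with MT-ND4. Both sequences are shown because they are the whole target on which these values rest, with the shared bases in capitals.
MT-ATP8: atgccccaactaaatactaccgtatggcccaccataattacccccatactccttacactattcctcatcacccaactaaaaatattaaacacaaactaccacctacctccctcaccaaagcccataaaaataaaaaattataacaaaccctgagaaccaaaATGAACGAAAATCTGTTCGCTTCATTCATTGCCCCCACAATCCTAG
MT-ND4L: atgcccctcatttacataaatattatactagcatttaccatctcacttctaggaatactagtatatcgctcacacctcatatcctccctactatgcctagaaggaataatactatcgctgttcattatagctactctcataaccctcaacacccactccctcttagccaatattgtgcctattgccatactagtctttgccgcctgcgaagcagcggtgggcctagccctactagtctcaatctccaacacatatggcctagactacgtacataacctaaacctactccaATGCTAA
The steps of low FPKM values were best described by subtracting 202 to 203 bases from the length of a gene, which leaves almost nothing of MT-ATP8. Its FPKM is thus a small number of usable positions scaled up, and no counting interval is given for the 7 members whose canonical transcript is under 500 bases: MT-ATP8, MT-ND4L, MT-ND3, NDUFA1, NDUFB3, COX6B1 and COX8A.

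The target of the siRNA checked the labels. TMEM161A had an FPKM of 42.6 in the HT29-labelled control and 4.64 in its knockdown library, and of 39.1 and 7.61 in the LIM1215 pair. Of 10 markers of colon epithelium, all had an FPKM of at least 67.8 in the LIM1215 libraries. In both HT29-labelled libraries, 5 of the 10 were under 1: CDX1, VIL1, GPA33, KRT20 and LGALS4. CDX1 was listed at 0 in both, against 88.4 and 132 in LIM1215, and VIL1 at 0.0397 and 0. EPCAM (168 and 154), KRT8, KRT18 and CDH1, which are general epithelial markers, were present, and so was CDX2, an intestinal lineage factor, at a low level (8.29 and 8.04). The cell line is therefore called HT29-labelled throughout, and the part of this difference in the comparisons between the lines was not tested. Leukocyte markers (5 genes) summed to an FPKM of 0.232 to 0.458 and endothelial markers (3 genes) to 0.2 to 0.601. PTPRC and CD3E were at 0 in all 4 libraries. Fibroblast markers (6 genes) summed to 6.03 to 18.2, nearly all of it COL1A1, with LUM at 0 everywhere. By the steps of low values, 1 unit of FPKM was worth about 18.1 to 21.6 fragments for each kilobase.

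The level of the subunits separated the 2 genomes more than any comparison of libraries did. The median FPKM of the 13 mitochondrial members was 7798 and 7506 in the HT29-labelled control and knockdown, and 9412 and 7702 in the same libraries of LIM1215. For the 39 nuclear members it was 153, 149, 216 and 196 in the same order. The ratio of these medians was 51.0, 50.3, 43.5 and 39.3. Every mitochondrial member exceeded every nuclear member in each library. The lowest mitochondrial level, MT-ND6 in LIM1215 knockdown cells at 2469, stood above the highest nuclear level, ATP5F1B in the same library at 774. The 13 mitochondrial members held 14.85%, 12.98%, 15.39% and 13.53% of the summed FPKM of the 4 libraries, and the 39 nuclear members 0.984%, 0.88%, 1.04% and 1.015%. Kits that select poly(A) tails were used, and mitochondrial mRNAs carry short tails, so levels of the 2 genomes are set side by side as measured and not as molecules per cell.

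**Figure D1:**
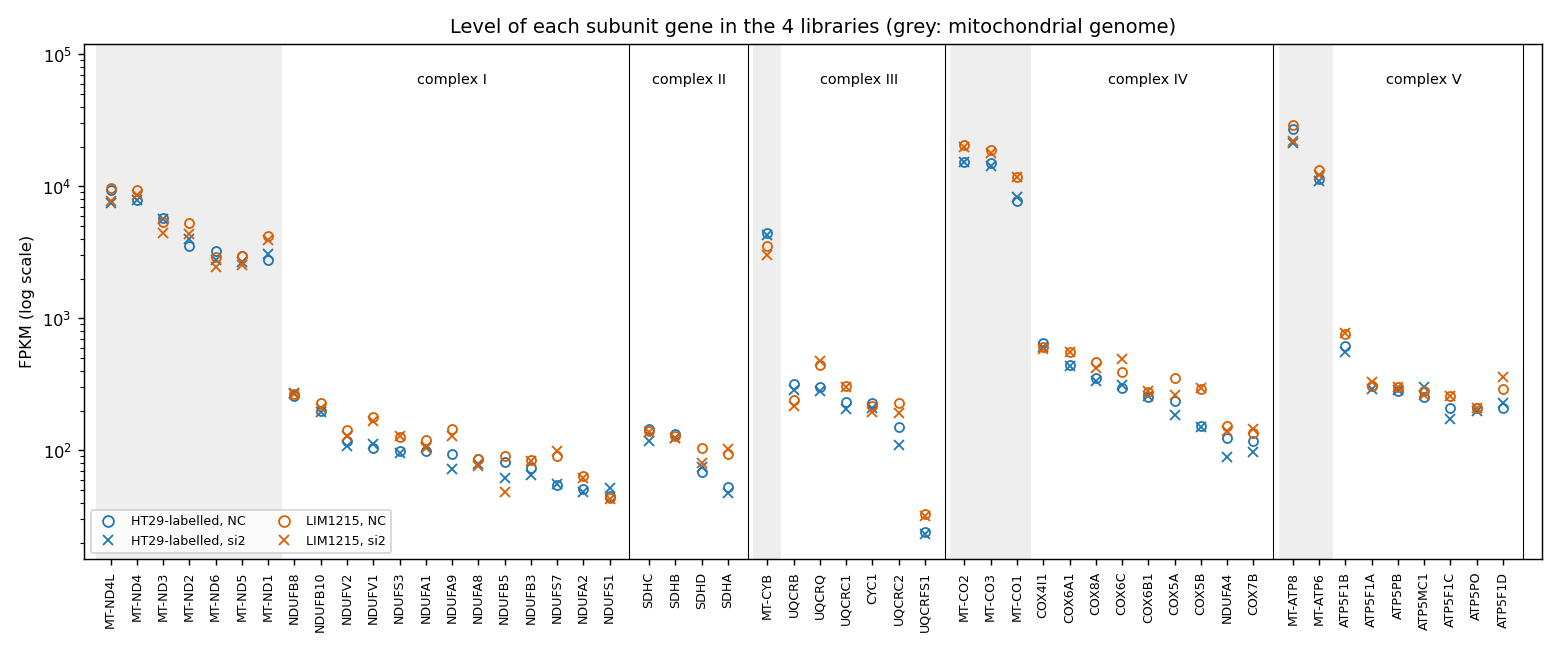
FPKM (log scale) of the 52 members, ordered by complex and level, in the HT29-labelled (blue) and LIM1215 (orange) libraries with control siRNA (circles) or TMEM161A siRNA (crosses). Genes of the mitochondrial genome (grey) lie between 2469 and 29365, and nuclear genes between 23.3 and 774.

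Among the mitochondrial members, genes of complexes V and IV took the first places. MT-ATP8 stood highest (27262 in the HT29-labelled control), under the limit given above. The catalytic core subunits of complex IV came next, MT-CO2 at 15333 and MT-CO3 at 15063, then MT-ATP6, the proton channel subunit of complex V, at 11362. MT-CO1 of complex IV, at 7798, stood below MT-ND4L and MT-ND4. Complex I subunits spread from MT-ND4L at 9359 down to MT-ND1 at 2790.4, with MT-CYB, the only mitochondrial subunit of complex III, at 4411. MT-CO2 and MT-CO3 were close in level, and with 1 library a group the order of such neighbours has no replicate check. Among nuclear members, complex IV and V subunits were the most abundant, with medians of 254 and 254 in that library, against 94.5 for complex I, 100.4 for complex II and 229.9 for complex III. COX4I1, a regulatory subunit of complex IV, led at 649.5 (602.8 in the knockdown, 609.5 and 590.7 in LIM1215), and ATP5F1B, the catalytic beta subunit of ATP synthase, followed at 616 (557 in the knockdown). In LIM1215 the order was the other way, with ATP5F1B at 760.4 and 773.97. UQCRFS1, the Rieske iron-sulfur protein of complex III, was the lowest of all at 24.05, although its partners UQCRB and UQCRQ were at 316 and 304 (288 and 282 in the knockdown). That low place held in all 4 libraries (23.3 in the HT29-labelled knockdown, 32.95 and 31.9 in LIM1215).

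Nuclear copies of mitochondrial DNA can take fragments from the mitochondrial genes. The copy of MT-ATP6 on chromosome 1, MTATP6P1 (633696 to 634376), matched it at 671 of 681 bases and was listed at an FPKM of 1714, 1885, 2120 and 2081 in the 4 libraries. MTND2P28 (98.4% of aligned bases identical to MT-ND2) was listed at 119, 131, 182 and 148, and MTCO1P12 at 31.4 to 42.5. MTND1P23, a copy of part of MT-ND1 (99.1% of aligned bases identical), differed between the lines. It was listed at 2.77 and 2.46 in the HT29-labelled libraries and at 124 and 153 in LIM1215. How fragments shared by such copies were counted is not given in the sources used here. MT-ATP6 in particular, and MT-ND1 between the lines, are therefore uncertain by their copies.

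The knockdown was first compared with the control across the mitochondrial genes, on the log2 ratio of FPKM plus 1. In LIM1215 all 13 mitochondrial members were lower in the knockdown library, with a median of −0.22, where 46.4% of all 14803 genes were lower. In the HT29-labelled line 10 of 13 were lower, with a median of −0.04, where 44.4% of all genes were lower. In bulk RNA, less of a transcript per cell and fewer cells with it cannot be told apart. None passed 1.5-fold (a log2 ratio of 0.585) in either line, where 14.8% of all genes passed in the HT29-labelled line (7.87% higher, 6.91% lower) and 12.8% in LIM1215 (6.63% higher, 6.18% lower). The medians of all genes were 0.04 and 0.02. Every member had a mean FPKM above 20. Of the 5741 genes with at least that mean, 10.1% passed 1.5-fold in the HT29-labelled line and 7.32% in LIM1215. The 13 lower values in LIM1215 kept their sign under all 7 scalings and pseudocounts tried, as did the 10 lower values in the HT29-labelled line. That outcome was fixed in advance. Each other scaling lowered the knockdown ratios of both lines, and a pseudocount cannot change a sign. The mitochondrial median minus the nuclear median was 0.05 in the HT29-labelled line and −0.19 in LIM1215, a difference that a common scaling factor leaves almost untouched. The order in the HT29-labelled line depends on the nuclear subunits chosen. The 40 nuclear subunits outside the member list had a median of 0.01 there, above the mitochondrial one.

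MT-ATP8 and MT-ND4L had the lowest ratios of the mitochondrial genes in both lines. MT-ATP8 had an FPKM of 27262 in the HT29-labelled control and 21420.1 in its knockdown library, and of 29365 and 22196 in LIM1215. Knockdown levels were thus 78.6% and 75.6% of control (log2 ratios −0.35 and −0.40). MT-ND4L went from 9359 to 7506 and from 9680 to 7702, or 80.2% and 79.6% of control (−0.32 and −0.33). These 2 genes were lower by much the same amount in either line, and both knockdown libraries lay below both controls. MT-ND3, also a complex I subunit under 500 bases, went from 5718 to 5638 (−0.02) and from 5349.8 to 4398 (−0.28). The medians of the 3 short mitochondrial genes were −0.32 and −0.33, against −0.02 and −0.13 for the 10 of at least 500 bases. MT-ATP6 and MT-ND4, which share bases with MT-ATP8 and MT-ND4L, had ratios of −0.04 and −0.0049 in the HT29-labelled line and of −0.13 and −0.14 in LIM1215. Gene length moved with these values, and its part in them was not tested.

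Complex I genes at the start of the heavy-strand message set the lines apart. MT-ND1 and MT-ND2, membrane subunits of the proton-pumping arm, were higher in HT29-labelled knockdown cells and lower in LIM1215 knockdown cells. MT-ND2 went from 3515 to 3972 (113% of control, 95% counting interval 112% to 114%, log2 ratio 0.18) in the first and from 5295 to 4393 (83.0%, 82.1% to 83.8%, −0.27) in the second. MT-ND1 went from 2790.4 to 3059 (0.13) and from 4187 to 3934 (−0.09). At a common sum outside the mitochondrial genome the HT29-labelled ratios shrank to 0.065 for MT-ND2 and 0.021 for MT-ND1, which is a larger shift than the counting interval. MT-CO1, the heme-bearing catalytic subunit of complex IV, was 7798 and 8249 in the HT29-labelled pair and 11748 and 11738 in the LIM1215 pair, the latter apart by less than its counting interval. Its HT29-labelled ratio of 0.08 turned to −0.03 when FPKM was scaled to a common sum outside the mitochondrial genome. Counting intervals here cover counting error only, and the variation between cultures was not measured.

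Genes toward the far end of the genome, on either strand, were lower in both lines, as were 10 of the 13 mitochondrial members in all. MT-ND5, the terminal pump of complex I, went from 2970.01 to 2656 in the HT29-labelled line (−0.16) and from 2956 to 2542 in LIM1215 (−0.22). MT-ND6, the only protein gene on the other strand, went from 3215 to 2775 (−0.21) and from 2909.9 to 2469 (−0.24). MT-CYB, which carries both hemes b of complex III, went from 4411 to 4252 (−0.05) and from 3545 to 3011 (−0.24). For all 3 genes each knockdown library lay below the control of its own line. Of complex IV, MT-CO2 had −0.0077 and −0.05 and MT-CO3 −0.09 and −0.06. In LIM1215 the mitochondrial median was −0.24 for complex I, −0.05 for complex IV and −0.27 for complex V. In the HT29-labelled line these were −0.02, −0.0077 and −0.19. Over the 12 genes of the plus strand, Spearman's rho between position and log2 ratio was −0.59 in the HT29-labelled line and −0.34 in LIM1215, and −0.82 and −0.35 over the 9 of at least 500 bases. These points share their libraries and precursor RNA, so the coefficients are descriptions without a p-value.

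**Figure D2:**
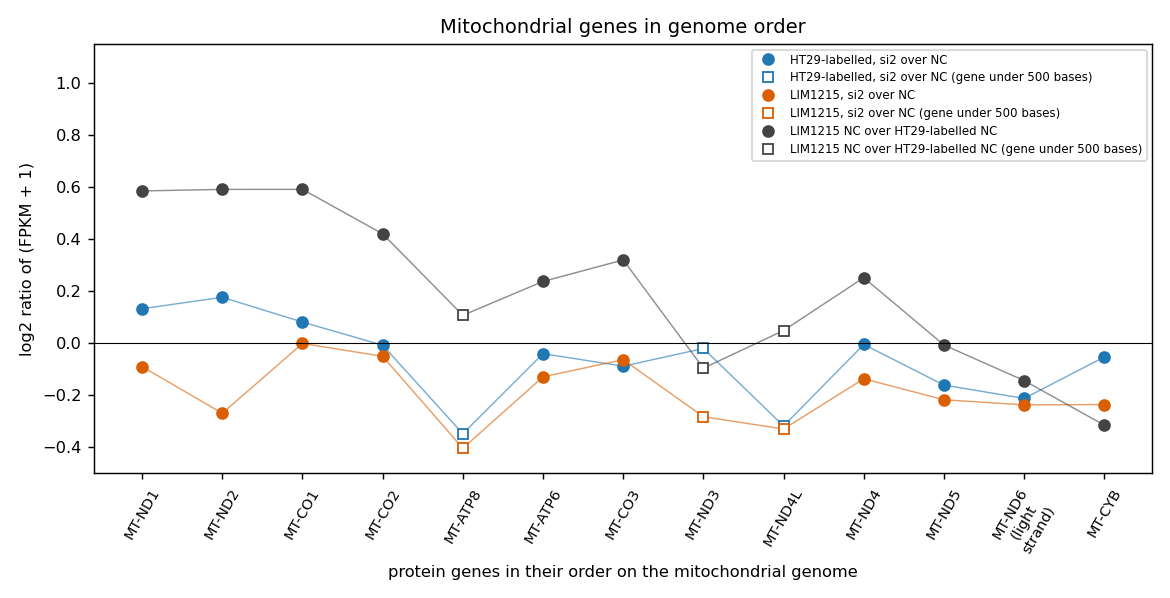
Log2 ratios of (FPKM + 1) of the 13 mitochondrial protein genes in their order along the genome, for knockdown over control in the HT29-labelled line (blue) and LIM1215 (orange) and for LIM1215 control over HT29-labelled control (grey). Open squares are genes under 500 bases. MT-ND1, MT-ND2 and MT-CO1 lie near 0.59 between the lines and MT-CYB at −0.32, and MT-ATP8 and MT-ND4L are the lowest points of both knockdown comparisons.

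The rRNAs of the same genome went the other way. MT-RNR1 and MT-RNR2 encode the small and large rRNA of the mitochondrial ribosome and lie upstream of MT-ND1. MT-RNR2 went from 4547 to 4981 in the HT29-labelled line (0.13) and from 6163.5 to 7359 in LIM1215 (0.26). MT-RNR1 had ratios of 0.20 and 0.26. In the HT29-labelled line these ratios shrank to 0.02 for MT-RNR2 and 0.09 for MT-RNR1 under the scaling that lowered them most. The mRNAs of MT-ND1 (0.13), MT-ND2 (0.18) and MT-CO1 (0.08) were higher in that line too, as deposited. Both rRNAs were thus higher in each knockdown library while most mRNAs of the genome were lower. The libraries were made with poly(A) selection, and its part in this was not tested.

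The nuclear subunits were then compared complex by complex. Their median log2 ratio was −0.09 in the HT29-labelled line, with 28 of 39 lower, and −0.03 in LIM1215, with 26 of 39 lower. All 28 and all 26 kept that sign under the 7 settings, which for lower values could not have come out otherwise. In both lines 21 of the 39 were lower and 6 higher, and 12 went opposite ways. With the mitochondrial genes, 31 of 52 members were lower in both lines, where 28% of all genes were. Past 1.2-fold (0.263), 10 of all 52 members were lower and none higher in the HT29-labelled line, where 20.5% of all genes were lower and 26% higher by that measure. In LIM1215, 7 members were lower and 2 higher, where 19.2% and 23.6% of all genes were. In either direction 46.5% and 42.8% of all genes passed 1.2-fold in the lines. The members' shares that were lower are near or under those of all genes, and fewer members than genes at large were higher. No member reached 2-fold in either line, where 3.8% and 3.46% of all genes did.

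Only NDUFB5 passed 1.5-fold in a knockdown comparison, out of 52 members in either line. NDUFB5 (ENSG00000136521, chromosome 3, 179604690 to 179627647, plus strand) encodes an accessory subunit of the complex I membrane arm. In LIM1215 its FPKM was 91.1 with control siRNA and 48.5 with knockdown, which is 53.2% (counting interval 51.1% to 55.4%, log2 ratio −0.90). In the HT29-labelled line it was 81.6 and 61.6, or 75.5% (72.8% to 78.2%, −0.40). Both knockdown libraries lay below both controls, with an estimated 3927 to 6925 fragments in each library if its canonical length of 4199 bases holds. The annotation used here has a protein-coding gene without a symbol that shares 426 exon bases with NDUFB5 on the same strand. No value for that gene was found in the deposited data, so no listed FPKM of it can hold fragments of NDUFB5. MRPL47, its neighbour that encodes a protein of the mitochondrial ribosome, was 54.4 and 48.7 in the HT29-labelled pair and 55.9 and 48.7 in the LIM1215 pair (−0.16 and −0.20).

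A few other members were lower in both lines past 1.2-fold. Beside NDUFB5, MT-ATP8 and MT-ND4L, these were COX5A alone, which makes 4 of 52 or 7.69%, where 9% of all genes were lower in both lines by that measure. COX5A, a matrix-side subunit of complex IV, went from 235 to 184 in the HT29-labelled line (78.2% of control, −0.35) and from 353 to 262 in LIM1215 (74.2%, −0.43). No member was higher past 1.2-fold in both lines, where 10.6% of all genes were. ATP5F1D, the delta subunit of the ATP synthase stalk, came nearest, going from 208 to 230.1 (0.15) and from 292 to 359.7 (0.30). COX6C, a small subunit of complex IV, went from 298 to 314 (0.08) and from 394 to 489.5 (0.31).

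In the HT29-labelled line the lowest ratios lay in complexes IV, III and I. NDUFA4, long counted with complex I and now known as a complex IV subunit and grouped there here, had the lowest ratio of all, going from 124 to 89.7 (72.2% of control, counting interval 69.1% to 75.4%, −0.46). Its LIM1215 values were 154 and 140.3 (−0.13). UQCRC2, a core protein of complex III, went from 151 to 110.3 (−0.45) and in LIM1215 from 227 to 193 (−0.23). NDUFA9, which sits where the arms of complex I meet, went from 94.5 to 72.6 (−0.38) and in LIM1215 from 144 to 128 (−0.17), but it shares 1103 and 606 exon bases with 2 protein-coding genes that have no symbol. All 3 were lower in both lines, and past 1.2-fold in the HT29-labelled line alone. No test of the difference between the lines was possible. At the upper end, ATP5MC1, which encodes the ring-forming c subunit of ATP synthase, was 254 and 303 in the HT29-labelled pair (0.25) and 280 and 265 in the LIM1215 pair (−0.08). NDUFS1, the largest iron-sulfur subunit of complex I, was 44.8 and 51.8 (0.21) and then 43.6 and 42.7 (−0.03).

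The ratios of the 39 nuclear members also went with transcript length in the HT29-labelled line (Spearman's rho −0.41, against −0.09 in LIM1215), and the part of length in them was not tested. By complex, the nuclear medians were close to each other. Complex I (13 genes) had −0.06 in the HT29-labelled line and −0.10 in LIM1215, and complex II (4 genes) −0.11 and −0.05. Complex III (6 genes) had −0.13 and −0.09, and all 6 were lower in the HT29-labelled line, from UQCRC2 at −0.45 to UQCRFS1 at −0.04. Complex IV (9 genes) had −0.08 and −0.02, and complex V (7 genes) −0.07 and 0.01. Within complex II, SDHC, a membrane anchor, had the lowest ratio in the HT29-labelled line (144 to 117, −0.30; 141 and 138 in LIM1215) and SDHD, the other anchor, in LIM1215 (103 to 80.6, −0.36). SDHD was higher in HT29-labelled knockdown cells (68.0 to 74.7, 0.13). Within complex V, ATP5F1C, the rotating gamma subunit, was the lowest in the HT29-labelled line (211 to 171, −0.30) and had 260.2 and 256.6 in LIM1215 (−0.02). NDUFS7, an iron-sulfur subunit near the quinone site, had the highest complex I ratio in LIM1215 (90.4 to 98.97, 0.13) and was 54.2 and 55.1 in the HT29-labelled pair (0.02). NDUFS3, a matrix-arm subunit of complex I, had −0.06 and 0.02 and shares 721 exon bases with PTPMT1 on the same strand, whose ratios were 2.06 and 1.27, so its value depends on how shared fragments were assigned.

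**Figure D3:**
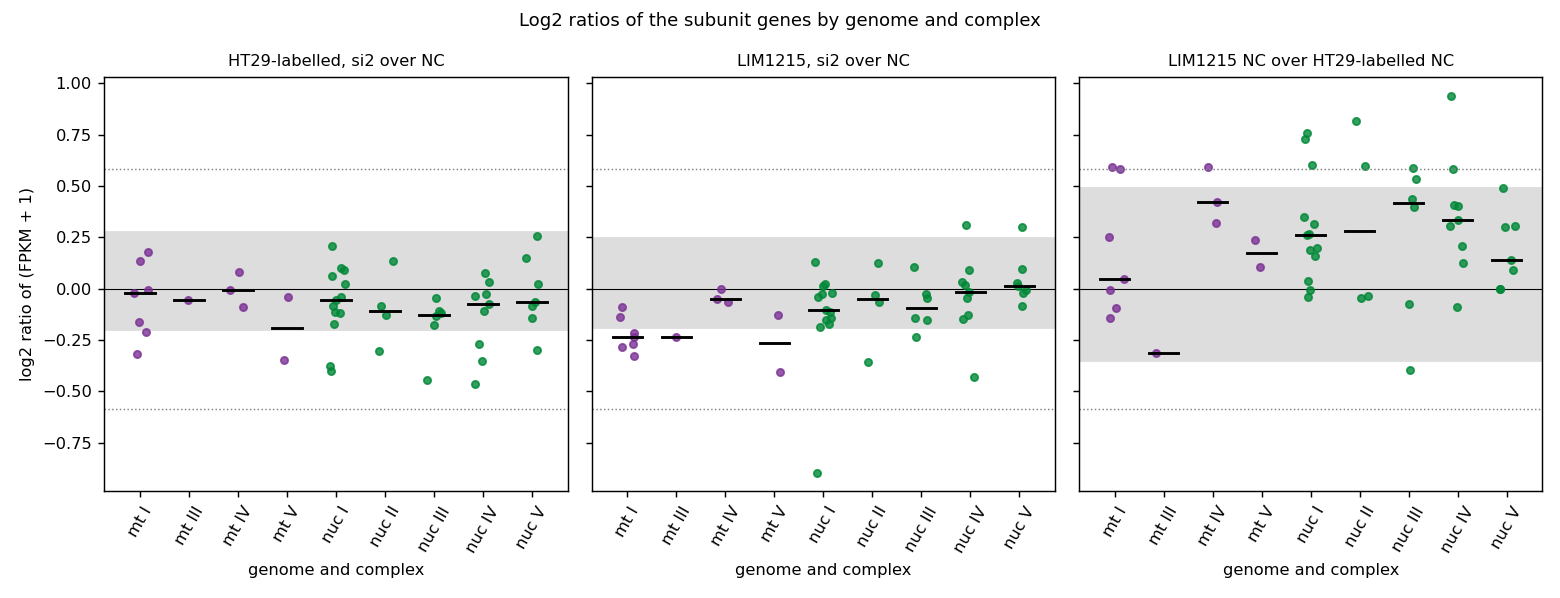
Log2 ratios of (FPKM + 1) for each member by genome and complex (mt, mitochondrial; nuc, nuclear) in the 3 comparisons, with the median as a bar, the middle 50% of all 14803 genes in grey and 1.5-fold as dotted lines. NDUFB5 at −0.90 is the single point past 1.5-fold in the knockdown panels, and 10 points pass it between the lines.

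**Figure D4:**
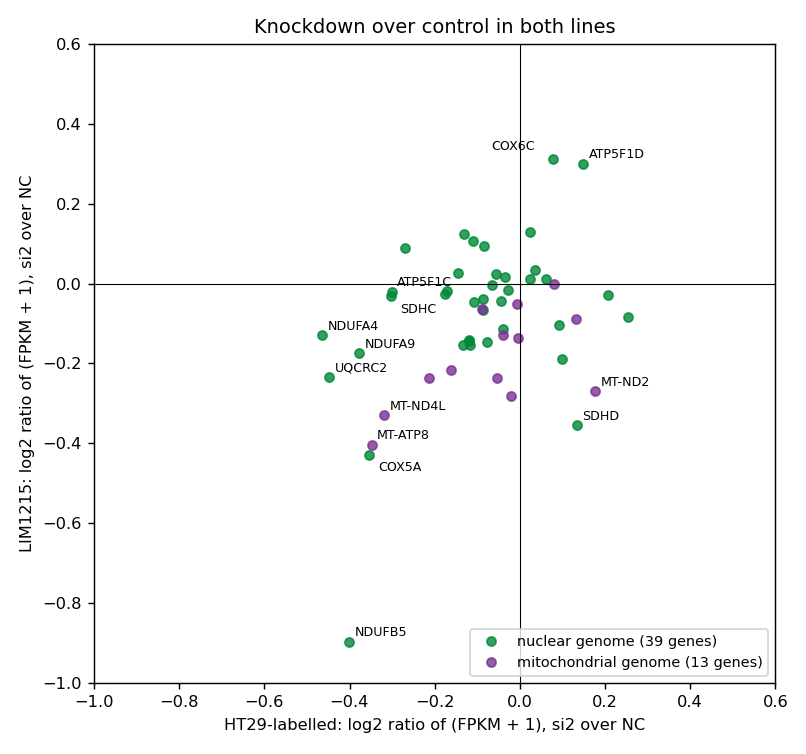
Log2 ratio of (FPKM + 1), knockdown over control, in the HT29-labelled line (x axis) against LIM1215 (y axis) for the 39 nuclear (green) and 13 mitochondrial (purple) members, with the members farthest from 0 and MT-ND2 named. NDUFB5, COX5A, MT-ATP8 and MT-ND4L lie low on both axes, and MT-ND2 and SDHD lie to the right of 0 and below it.

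The lines were compared next through their controls. These are the same control libraries that the knockdown comparisons use. A high LIM1215 control value raises the ratio between the lines and lowers the LIM1215 knockdown ratio. A high HT29-labelled control value lowers both the ratio between the lines and its own knockdown ratio. On FPKM as deposited, 31 of 39 nuclear and 9 of 13 mitochondrial members were higher in LIM1215, with medians of 0.30 and 0.24, where 53.7% of all genes were higher. Past 1.5-fold, 10 members were higher and none lower, where 21.8% of all genes were higher and 16.3% lower (38% together), so the members' 10 of 52 is no larger a share than that of all genes. Past 1.2-fold, 26 were higher and 2 lower, where 35.7% and 29.3% of all genes were (65% together). None reached 2-fold, where 19.4% of all genes did. Of the 5741 genes with a mean FPKM of at least 20, 59.5% were higher in LIM1215. By 1.5-fold 27.8% of them passed, 19.3% upward. The scaling bears on this comparison, because the summed FPKM was 785861 in the HT29-labelled and 891114 in the LIM1215 control. Scaled to a common sum, the nuclear median was 0.12 with 25 of 39 higher and the mitochondrial median 0.06 with 7 of 13 higher, and 2 members passed 1.5-fold. That scaling moved the median of all genes from 0.05 to −0.11. Both medians of the members remained above it, which was fixed in advance, since the scaling shifts all ratios nearly alike.

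Along the genome, the ratios between the controls tended to be lower toward its far end, with exceptions. MT-ND1, MT-ND2 and MT-CO1, nearest the start, had ratios of 0.59, 0.59 and 0.59, from 2790.4 to 4187, from 3515 to 5295 and from 7798 to 11748. MT-CO2 had 0.42 (15333 to 20520.5), MT-ATP8 0.11, MT-ATP6 0.24 and MT-CO3 0.32. The short MT-ND3 and MT-ND4L followed with −0.10 and 0.05, both below MT-ND4, which lies beyond them. MT-ND4 had 0.25 (7904 to 9412), MT-ND5 −0.0070, and MT-CYB, last on the plus strand, −0.32 (4411 to 3545). Spearman's rho between position and ratio was −0.83 over the 12 plus-strand genes and −0.88 over the 9 of at least 500 bases. The points share 2 libraries, and no p-value is given. The ratio of MT-CO1 to MT-CYB thus differed between the controls, which no scaling of whole libraries changes. By complex the mitochondrial medians were 0.42 for complex IV, 0.17 for complex V, 0.05 for complex I and −0.32 for complex III.

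Nuclear members past 1.5-fold between the lines came from 4 of the complexes. Complex IV gave COX5B, a peripheral zinc-binding subunit, with the largest difference of all: 153 and 149 in the HT29-labelled libraries and 294 and 297 in the LIM1215 libraries (192% between controls, counting interval 180.5% to 204.7%, log2 ratio 0.94). Complex II gave SDHA, the flavoprotein that oxidises succinate, at 52.4 and 47.8 against 93.0 and 101.5 (0.82), and SDHD at 68.0 against 103 in the controls (0.60). For COX5B and SDHA both LIM1215 libraries lay above both HT29-labelled ones, while the knockdown ratios of COX5B were −0.03 and 0.02 and those of SDHA −0.13 and 0.12. SDHA has near-identical copies, of which SDHAP1 was listed at 11.7 to 16.1, so a share of its fragments may be counted there.

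Complex I gave NDUFV1, which holds the NADH-binding flavin, at 105.0 and 178.4 in the controls and 111.9 and 166.1 in the knockdown libraries (0.76), NDUFS7 (0.73), and NDUFA9 (0.60). Complex III gave UQCRC2 at 151 and 227 (0.59). COX5A, at 0.58, and UQCRQ, at 0.53, lay just short of the threshold, and MT-ND1 and UQCRC2, both at 0.59, just past it. Complex V gave no member, with ATP5F1D highest at 0.49 and ATP5F1A and ATP5PO, subunits of the catalytic head and the stalk, at 0.0001 and −0.0002. ATP5PO was at 209.2, 199.98, 209.2 and 208.6 in the 4 libraries. UQCRB, a small subunit of complex III, had the lowest ratio of all members, at 316 and 240.1 in the controls and 288 and 215.8 in the knockdown libraries (−0.40). Genes of one complex therefore differed from each other: the 4 subunits of complex II ran from −0.04 (SDHB, 133 and 129, with 125 and 123 in the knockdown libraries) to 0.82 (SDHA). Under scaling to a common sum, SDHA and COX5B alone stayed past 1.5-fold, and 25 of the 31 higher nuclear members kept their sign under all 7 settings.

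The start regions of the 2 nuclear genes with the largest difference between the lines, COX5B and SDHA, are shown because both hold motifs of factors known to act on respiratory genes. RefSeq windows (GRCh38.p14) of 300 bases, from 250 before to 50 after the start, were given for 31 of the 39 nuclear members. Both strands were searched for the NRF1 motif (GCGCA, any base, GCGC), the ETS motif CCGGAAG, which GABPA binds, and the YY1 motif AAGATGGC. Matches are in capitals.
COX5B, chr2:97645812-97646111, plus strand: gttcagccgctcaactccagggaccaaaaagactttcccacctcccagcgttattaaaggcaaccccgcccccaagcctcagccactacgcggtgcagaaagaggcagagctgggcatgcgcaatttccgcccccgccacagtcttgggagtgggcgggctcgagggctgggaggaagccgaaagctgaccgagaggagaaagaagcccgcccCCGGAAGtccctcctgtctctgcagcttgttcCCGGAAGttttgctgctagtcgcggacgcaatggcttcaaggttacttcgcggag
SDHA, chr5:218070-218369, plus strand: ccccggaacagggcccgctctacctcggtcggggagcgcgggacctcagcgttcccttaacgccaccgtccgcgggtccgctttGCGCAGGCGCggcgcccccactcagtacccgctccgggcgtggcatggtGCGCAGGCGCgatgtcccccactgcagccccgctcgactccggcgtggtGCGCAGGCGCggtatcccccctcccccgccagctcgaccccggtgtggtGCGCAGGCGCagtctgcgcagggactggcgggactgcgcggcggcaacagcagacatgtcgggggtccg
COX5B has 2 ETS matches and no NRF1 match, and SDHA has 4 NRF1 matches, whose first bases lie at −166, −117, −68 and −19 from the start. Over the 31 members the NRF1 motif was found in 8 windows (25.8%), the ETS motif in 11 (35.5%) and the YY1 motif in 6 (19.4%). Over all 35116 windows of that length the shares were 5.78%, 10.3% and 2.89%. Of those windows 7811 were further windows of a gene already counted, while only the first window of each member was searched. The 2 sets of shares are thus not strictly alike. At least 1 motif stood in 20 of the 31. A match is a string of letters and not a measured site, and no data on binding are part of these libraries.

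The factors that bind those motifs were measured too. NRF1 had an FPKM of 12.1 and 11.1 in the HT29-labelled pair and 9.91 and 10.3 in the LIM1215 pair, GABPA 4.43 to 5.20 in all 4, and YY1 59.7 to 80.3. ESRRA, a nuclear receptor of respiratory genes, was 35.4 and 41.2 against 77.04 and 81.5 (1.10 between the controls), and PPARGC1A, its coactivator, stayed under 1 in every library. Of 8 regulators with a mean FPKM of at least 1, none passed 1.5-fold in a knockdown comparison. Of all genes, 14.8% passed in the HT29-labelled line and 12.8% in LIM1215.

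The list of other subunits adds the rest of the complexes. The other 40 nuclear subunits had medians of 0.01 in the HT29-labelled line, −0.0034 in LIM1215 and 0.25 between the controls. In that last comparison 34 of 40 were higher in LIM1215, where 53.7% of all genes were. Over the 7 settings the lowest count was 24 and the lowest median 0.07. NDUFAB1, the mitochondrial acyl carrier protein that is also a complex I subunit, was the only one past 1.5-fold with knockdown, in both lines: 143 to 87.1 (−0.70) and 160.3 to 105.5 (−0.60). Of all genes, 14.8% passed 1.5-fold in the HT29-labelled line and 12.8% in LIM1215. Of 7 tissue-restricted isoforms of complex IV, 2 had a mean FPKM of at least 1: COX6B2, at 4.09 in the LIM1215 control and at 0.222 to 0.451 in the other libraries, and NDUFA4L2, at 0.625 to 1.51.

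Assembly factors insert cofactors and subunits. Of 51 listed, 50 were matched, with medians of −0.04 and −0.08 with knockdown. In the HT29-labelled line 2 passed 1.5-fold upward (SDHAF1, 0.73, and COX19, 0.81) and 2 downward (NUBPL, −0.88, and HIGD1A, −0.996), and in LIM1215 only ATPAF1 passed, downward. That is 4 of 50 and 1 of 50, where 14.8% and 12.8% of all genes passed. The 6 factors of complex III divided by line: all 6 were higher in HT29-labelled knockdown cells (median 0.26) and all 6 lower in LIM1215 knockdown cells (median −0.19), where 33.8% of all genes went opposite ways in the lines. The HT29-labelled count was 5 of 6 under both scalings to a common sum, with TTC19 going from 0.06 to −0.05 at its lowest. BCS1L, which inserts the Rieske protein, went from 40.2 to 53.5 (0.40) and from 51.7 to 43.4 (−0.25), and UQCC2, an early factor for cytochrome b, from 84.5 to 110.9 (0.39) and from 102.5 to 89.1 (−0.20). Genes of these lists with a value are named after their values were seen. ATPAF1, a chaperone of the ATP synthase beta subunit, was lower in both lines, from 29.1 to 19.6 (−0.55) and from 40.2 to 26.4 (−0.59).

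Genes that express mitochondrial DNA (31) had medians of 0.15 and 0.05 with knockdown. In the HT29-labelled line 2 passed 1.5-fold upward (TWNK, 0.75, and PNPT1, 0.75) and 1 downward (MTERF3), and in LIM1215 none of the 31 did. These shares, too, are under the 14.8% and 12.8% of all genes. POLRMT, the mitochondrial RNA polymerase, was 53.4 and 68.3 in the HT29-labelled pair (0.35) and 49.7 and 55.6 in LIM1215 (0.16). TFAM, which packages mitochondrial DNA and starts its transcription, was 33.3 and 25.9 (−0.35) and then 28.0 and 26.04 (−0.10). LRPPRC and SLIRP form the complex that stabilises mitochondrial mRNAs. LRPPRC had ratios of −0.05 in the HT29-labelled line and −0.03 in LIM1215, and SLIRP of −0.20 and −0.08. MTERF3, of the mitochondrial termination factor family, was lower in both lines, from 24.6 to 15.2 (−0.66) and from 13.7 to 9.12 (−0.54). The proteins of the mitochondrial ribosome (78) had a median of 0.06 in the HT29-labelled line, with 47 higher (31 under the scaling that lowered it most). In LIM1215 their median was −0.06, with 57 lower. Of all genes, 53.9% were higher in the HT29-labelled line and 46.4% lower in LIM1215. MRPS18C alone of the 78 passed 1.5-fold, downward in LIM1215 (−0.75). CYCS, the gene of cytochrome c, was 271 and 258 in the HT29-labelled pair and 459.6 and 409 in the LIM1215 pair, or 0.76 between the controls. Of 15 electron carrier genes, COQ7 (0.68) and PDSS1 (0.60), of ubiquinone synthesis, passed 1.5-fold upward in LIM1215 and none in the HT29-labelled line. Of all genes, 12.8% passed in LIM1215 (6.63% upward) and 14.8% in the HT29-labelled line.

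**Figure D5:**
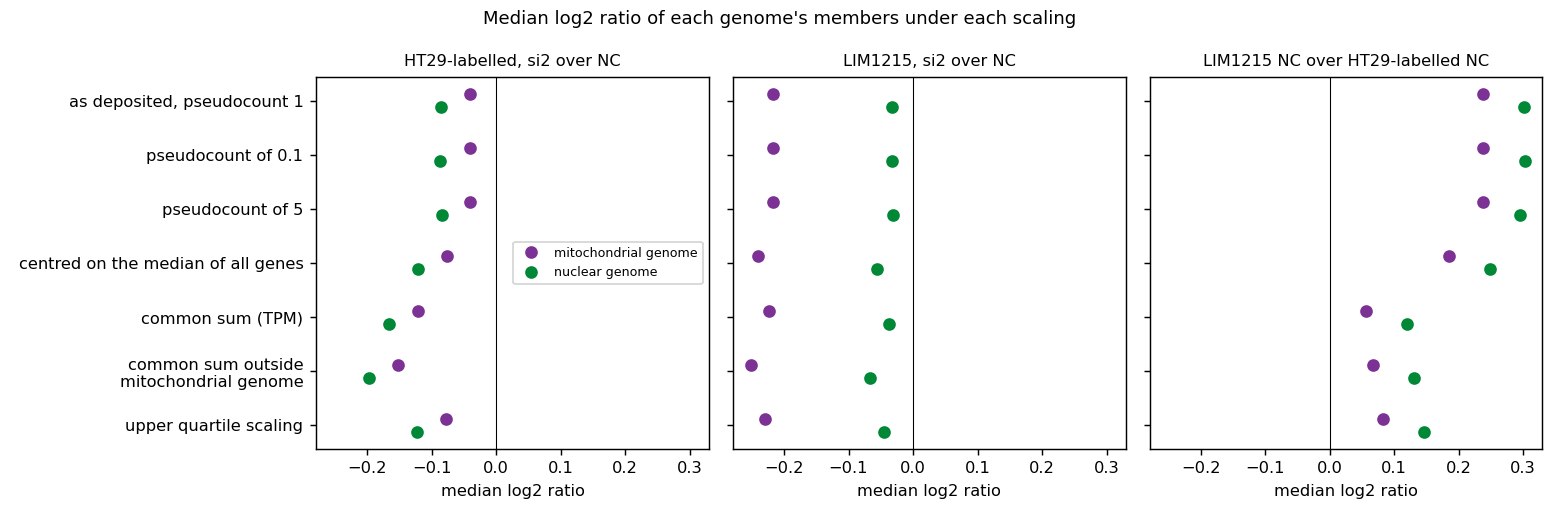
Median log2 ratio of the 13 mitochondrial (purple) and 39 nuclear (green) members in the 3 comparisons under each scaling or pseudocount. All medians of the knockdown comparisons stay below 0. The other scalings all lower the knockdown ratios, so these medians could not rise above 0. The mitochondrial median lies below that of the 39 nuclear members in LIM1215 and above it in the HT29-labelled line. The other 40 nuclear subunits, not drawn, had 0.01 in the HT29-labelled line as deposited, above the mitochondrial median. The medians between the lines stay above 0 and are smallest when FPKM is scaled to a common sum.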

How the data were processed

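Total RNA was prepared with a column kit and sequenced from a stranded poly(A) library kit, per the labels' protocols. The authors deposited FPKM per gene for 1 library in each of 4 groups. HISAT2 2.1.0, SAMtools 1.20, Cufflinks 2.2.1 and Cuffdiff, with GRCh38, are named without roles per the submitters' processing notes. The gene annotation, filters and treatment of shared fragments are not given in the sources used here.

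Symbols, lengths and positions came from GENCODE release 44 on GRCh38, matched by identifier for 56550 of 60658. Log2 ratios used FPKM plus 1 and genes with a mean FPKM of at least 1. Python 3.11.15 with numpy 2.4.6, pandas 2.3.3 and scipy 1.17.1 was used. Fragments were estimated from the steps of low FPKM values in genes with 1 transcript of at least 500 bases: 77.06% to 78.95% of values lay within 0.03 of a whole number, against 6% by chance. Depths of 10 to 30 fragments per kilobase were searched, since values whole at one depth remain whole at its double. The fragments of each member were then estimated from the length of its canonical transcript. Where shorter transcripts carry the fragments, these estimates are too high and the intervals too narrow, which was not tested. Intervals of 95% are exact Clopper-Pearson and cover counting error only. Ratios and depth fit were tested on simulated data.

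Members and lists were chosen with earlier results of these data known. Named were the 13 mitochondrial members, the extreme nuclear members of each complex, members past 1.5-fold, and list genes past 1.5-fold in both lines, with others named after their values were seen. Alternatives were pseudocounts of 0.1 and 5, 4 other scalings, other filters and thresholds, the mean over a list and, added after the data were seen, members of at least 500 bases, members sharing no exon base and list medians under each scaling.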

Additional observations from a re-analysis of the deposited data

Results flagged for a closer look

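Members whose knockdown ratio went one way in the HT29-labelled line and the other way in LIM1215, each beyond its counting interval, are given here as the LIM1215 log2 ratio minus the HT29-labelled one. With 1 library a group, none of these differences was tested. Among complex I genes the difference was −0.22 for MT-ND1, −0.45 for MT-ND2 and −0.19 for NDUFV1. NDUFA1, a short complex I gene for which no interval is given, had −0.29. At a common sum outside the mitochondrial genome the HT29-labelled ratios of NDUFV1 and NDUFA1 fell below 0 (−0.019 and −0.011), so these 2 no longer went opposite ways. In complex II the anchor SDHD had −0.49 and the flavoprotein SDHA 0.26. UQCRQ of complex III had 0.21, COX7B of complex IV 0.36 and ATP5F1A of complex V 0.18.

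Medians over lists also took opposite signs in the lines, untested for the same reason. The difference was 0.078 for the nuclear members of complex V, −0.21 for the other complex III subunits, 0.35 for the complex II assembly factors and −0.45 for those of complex III. It was −0.12 for the mitochondrial ribosome and −0.0154 for all other subunits together. Most of these rest on a median near 0 in one line. In the HT29-labelled line the medians of the mitochondrial ribosome, the other complex III subunits and all other subunits turned to −0.051, −0.025 and −0.0995 under the scaling that lowered them most. In LIM1215 that of nuclear complex V turned to −0.022. The medians of the complex II and III assembly factors kept opposite signs under all 7 settings. So did those of the other complex IV subunits (−0.09 in the HT29-labelled line, 0.11 in LIM1215) and of the complex IV tissue isoforms (0.19 and −0.91). Each of these lists has 2 genes with a mean FPKM of at least 1, and both isoforms are near that floor.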

How the results depend on the processing

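No paired analysis was possible because each group has 1 library and the labels give no replicate numbers. No median of the 13 mitochondrial or 39 nuclear members changed sign under any alternative tried. The other scalings only lowered the knockdown ratios, so they could not have turned the knockdown medians, which were below 0 as deposited. For the same reason only the higher knockdown ratios of single members could turn. Over the 7 scalings and pseudocounts, 12 of 13 and 32 of 39 members kept their sign in the HT29-labelled line, 13 and 33 in LIM1215, and 11 and 33 between the controls. The other scalings lowered the ratios between the controls as well, so there too only higher values could turn. Of those, 7 of 9 mitochondrial and 25 of 31 nuclear members kept their sign. The mitochondrial median in the HT29-labelled line was −0.076 after centring, −0.12 at a common sum, −0.15 at a common sum outside the mitochondrial genome, −0.077 with upper quartile scaling, −0.067 as a mean and −0.024 over genes of at least 500 bases. In LIM1215 it was −0.24 after centring, −0.25 at a common sum outside the mitochondrial genome, −0.19 as a mean and −0.13 over genes of at least 500 bases. Between the controls it was 0.19, 0.056, 0.067 and 0.082 under the 4 scalings in that order, 0.20 as a mean and 0.29 over genes of at least 500 bases. The nuclear median in the HT29-labelled line was −0.17 at a common sum and −0.20 outside the mitochondrial genome, and between the controls 0.12, 0.13 and, with upper quartile scaling, 0.15. The number of members past 1.5-fold between the controls was 6 with a pseudocount of 5, 4 after centring, and 2, 3 and 3 under the other scalings. It was 0 at 2-fold and 28 at 1.2-fold. With knockdown it was 10 at 1.2-fold in the HT29-labelled line, and 0 at 2-fold and 9 at 1.2-fold in LIM1215. Without a filter on low values the share of all genes past 1.5-fold was 5.21% and 4.84% with knockdown, in that order, and 12.3% between the controls, against 14.8%, 12.8% and 38.0%. Scaling by a common sum turned 1.5-fold calls of all genes between the controls from 21.75% higher and 16.27% lower to 17.75% and 21.96%. The changes under other scalings follow from the factors themselves, and other causes were not tested. Depth limited few members, since all of at least 500 bases had 463 or more fragments in each library, as estimated from canonical lengths.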
